A study of Mus musculus with 35 samples.

Results

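The genes described here copy DNA or make its building blocks: 44 genes, chosen by name as members of the replication machinery and of deoxynucleotide supply, out of 17097 genes measured in mouse lung. All 44 had a probe set assigned to a single gene, 77 such probe sets in all, and each gene is represented by its brightest one, by the mean of the 35 arrays. RNA of whole lung came from adult male C57Bl/6 mice of wild type genotype, bought from Taconic, that breathed styrene, an industrial solvent monomer, or clean air once for 6 h and were killed on the following morning. The 7 groups were 0 (air only), 1, 5, 10, 20, 40 and 120 ppm, with 5 Affymetrix arrays each and 35 arrays in all. The labels call the 5 arrays of a group biological replicates. Replicate 5 at 1 ppm and replicate 1 at 5 ppm carry the same animal number in their titles, so separate animals are not certain, and p-values measure the spread between these arrays. Since the organ was taken whole, more (or fewer) cells in S phase and more (or less) message per cell cannot be told apart.

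Before a cell copies its genome, the origin recognition complex together with Cdc6 and Cdt1 loads the ring-shaped MCM helicase onto DNA. At the start of S phase Mcm10, Cdc45 and the GINS complex activate that helicase, and primase, polymerases, the Pcna clamp with its loader, and the enzymes that join Okazaki fragments then build the new strands. Most of these genes are transcribed as cells pass from G1 into S phase, under control of E2F factors, and in adult lung, where most cells rest, they are used as signs of cell division, as in repair of the airway lining.

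At 1 ppm no member changed. At 5 ppm 14 of the 44 rose, and at 10, 20 and 40 ppm 30, 28 and 26 rose. None fell at these doses. Ribonucleotide reductase subunit Rrm2, thymidine kinase Tk1, the helicase subunit Mcm5 and the methylation factor Uhrf1 rose most at 10 ppm, by 1.5 to 2.20 on the log2 scale. At 120 ppm the group split: 25 members were higher than at 0 ppm and 13 were lower. Of all 17097 genes, 1.13% rose and 0.0234% fell at 5 ppm. The shares were 5.17% and 6.62% for 10 ppm, 6.45% and 6.74% for 20 ppm, and 7.69% and 5.04% for 40 ppm. At 120 ppm 42.9% of all genes were higher and 31.9% lower. The members' share of lower calls there lay near that of all genes. Their share of higher calls was larger, a difference that was not tested. At 1 ppm 0% of all genes changed (limma, Benjamini-Hochberg adjusted p under 0.05), and 6 members had an unadjusted p under 0.05. For unadjusted p no share over all genes is given, here or in later comparisons. For the doses in ascending order from 1 to 120 ppm, the median difference of the 44 members from 0 ppm was -0.12, 0.35, 0.57, 0.53, 0.46 and 0.37. Over all genes it was -0.01, 0.00, -0.02, -0.02, 0.01 and 0.15. Levels are log2 signals on the scale of robust multi-array averaging (RMA). Differences are between means of 5 arrays with limma's standard error, written ±. The words rose, fell and changed are used for an adjusted p under 0.05.

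**Figure D1:**
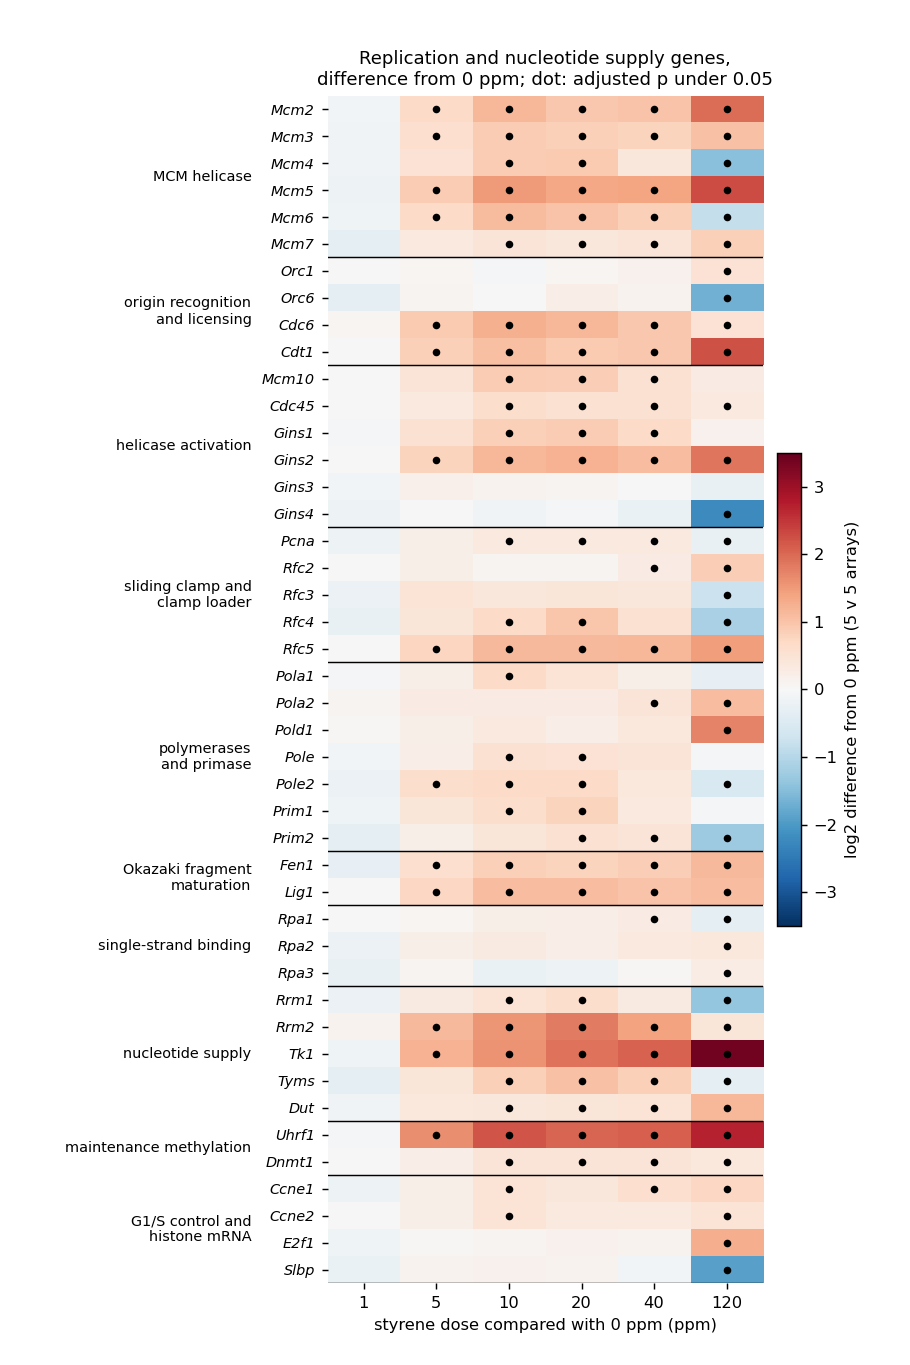
Log2 difference from 0 ppm (colour, 5 arrays against 5) of each of the 44 genes (rows, by role) at 6 styrene doses (columns, ppm), with a dot where the adjusted p was under 0.05. Dots fill the rows of Mcm2, Mcm3, Mcm5, Mcm6, Cdt1, Cdc6, Gins2, Rfc5, Fen1, Lig1, Rrm2, Tk1 and Uhrf1 from 5 ppm upward. The column at 120 ppm holds both colours, with 25 members higher and 13 lower, Mcm6 among the lower.

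The lowest dose at which a member rose was 5 ppm for 14 genes and 10 ppm for 16. It was 20 ppm for 1 gene, Prim2, and 40 ppm for Rfc2, Pola2 and Rpa1. The other 10 were past the threshold at no dose from 1 to 40 ppm. All 14 genes of 5 ppm were past it again at 10 and 20 ppm, and 13 of them at 40 ppm, Pole2 being the exception. These comparisons share the 0 ppm arrays. Averaged over the 44 genes, the log2 signal of single arrays lay between 6.02 and 6.27 at 0 ppm and between 5.91 and 6.08 at 1 ppm. It lay between 6.46 and 6.61 at 5 ppm and between 6.56 and 6.88 at 10 ppm. The arrays at 5 ppm were thus all above those at 0 and 1 ppm, and replicate 1 was the highest of the air-exposed group. Arrays at 20 ppm (6.60 to 6.95) and 40 ppm (6.52 to 6.88) overlapped with those at 10 ppm, and those at 120 ppm (6.21 to 6.62) reached down into the range of 0 ppm.

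**Figure D2:**
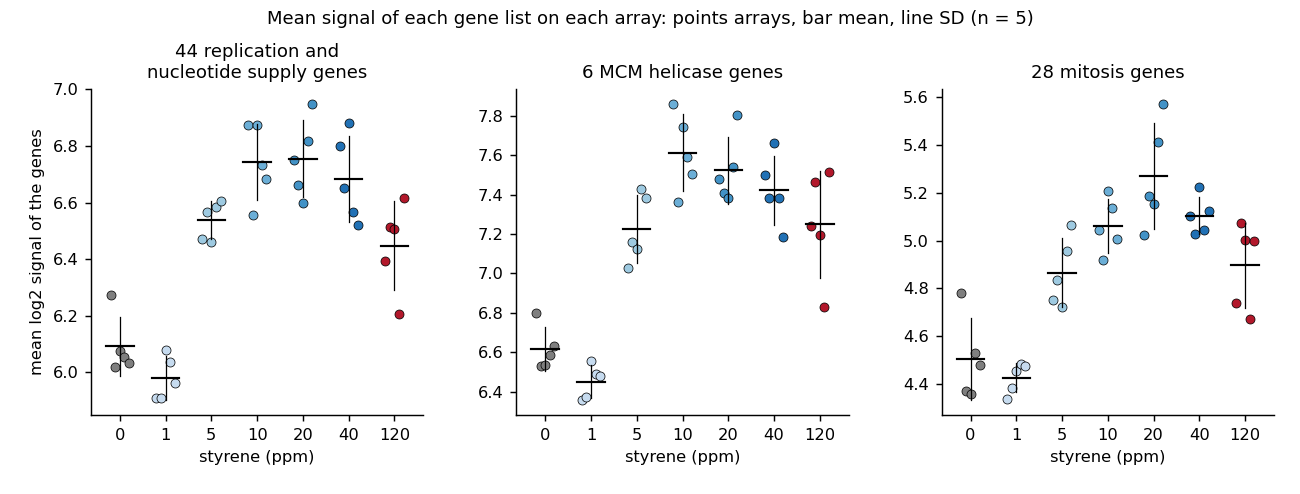
Mean log2 signal per array (points) with group mean (bar) and SD (line, n = 5) by dose in ppm, for the 44 genes, the 6 MCM helicase genes and 28 mitosis genes. In the left panel the 5 arrays at 5 ppm (6.46 to 6.61) sit above every array at 0 ppm (6.02 to 6.27) and 1 ppm (5.91 to 6.08).

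Neighbouring doses were compared to see where the levels moved. From 1 to 5 ppm 22 members rose and 0 fell, against 1.61% and 0.357% of all genes. Without the arrays that share an animal number, replicate 5 at 1 ppm and replicate 1 at 5 ppm, 18 members rose in this step. From 5 to 10 ppm 2 rose and 0 fell, against 1.5% and 3.14% of all genes. They were Mcm5 (by 0.62 ± 0.15, adjusted p = 0.0133) and Uhrf1 (by 0.58 ± 0.17, adjusted p = 0.0441). That count of 2 moved with single arrays. It was 0 without replicate 1 at 10 ppm, and 1 without any one of replicates 1, 2, 3 and 5 at 5 ppm or replicates 3 and 4 at 10 ppm, and it was at most 3. Rpa3, a single-strand binding subunit, had a difference of -0.32 ± 0.11 in this step (adjusted p = 0.0852) and was called lower under 4 of the alternatives. From 10 to 20 ppm no member changed in limma's test, 1 had an unadjusted p under 0.05, and 0.111% of all genes changed. From 20 to 40 ppm no member changed either, 9 had an unadjusted p under 0.05, and 0% of all genes changed. From 40 to 120 ppm 13 members rose and 19 fell, against 39.8% and 31.1% of all genes. In the moderated F test over the 6 comparisons with 0 ppm, 43 of the 44 members passed, all but Gins3, as did 76.3% of all genes.

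The 120 ppm arrays stood apart from the other 30, along a first principal component that held 60.7% of the variance over all genes. Poly-A spike-in controls read 1.69 higher on the log2 scale at 120 than at 0 ppm, the highest nonspecific control 1.09 higher and the median gene 0.39 lower. Each gave p = 0.00794 in a two-sided exact permutation test over arrays, the smallest that 5 against 5 allows, and an adjusted p of 0.0238 over 24 such tests. With genes ranked by their level at 0 ppm and cut into 4 bins of equal size, 58.4% of the dimmest bin and 32.7% of the brightest rose. In the same bins 0.96% and 55.7% fell. The part of these array-wide shifts in the members' differences at 120 ppm was not tested. Nonspecific control probe sets served as the mark for a measured level. Of the 44 members, 21 lay above an array's highest such control on all 5 arrays of the 0 ppm group. In the groups from 1 to 120 ppm 16, 25, 26, 25, 27 and 13 did. Where an array of the dimmer group lay below its control, that array was set to the control and the fold is a lower bound, written as at least. No fold is given where that bound is not above 1. Log2 differences are as measured in every case, so for dim genes they are no measure of fold.

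Promoters are printed for 7 members that hold E2F letters, 4 that rose from 5 ppm upward and 3 with no call from 1 to 40 ppm on their brightest probe set. Of the latter, Orc1 and Gins3 lay below the nonspecific control on every array, so that a lack of response is not shown for them. Sequences are RefSeq's, on GRCm38.p6, and 36 of the 44 members had an entry of 250 bases before to 50 bases after the start site. Searched on both strands were TTTCCCGC, TTTCGCGC, TTTGCCGC and TTTGGCGC, the consensus letters of an E2F site. They occurred in 15 of the 36 members (41.7%) and in 704 of 27018 genes with an entry (2.61%), a description with no test; median GC content was 60.1% and 52.8%. CCAAT boxes (CCAAT) were in 61.1% of these members and 41.1% of genes, and GC boxes (GGGCGG) in 77.8% and 38.2%. Among members first called at 5 ppm 8 of 13 held an E2F match, among those first called at 10 to 40 ppm 3 of 14, and among those not called from 1 to 40 ppm 4 of 9. Of the first set, Mcm5 (chr8:75109319-75109508, plus strand), Mcm6 (chr1:128359706-128359895, minus strand), Cdc6 (chr11:98907961-98908150, plus strand) and one of 2 Uhrf1 promoters (chr17:56304123-56304312, plus strand) are shown. Of the last set, Orc1 (chr4:108579264-108579453, plus strand), Gins3 (chr8:95633369-95633558, plus strand) and Rfc3 (chr5:151651209-151651398, minus strand) are shown. Each is the 190 bases before the start site, with E2F matches in capitals.
Mcm5: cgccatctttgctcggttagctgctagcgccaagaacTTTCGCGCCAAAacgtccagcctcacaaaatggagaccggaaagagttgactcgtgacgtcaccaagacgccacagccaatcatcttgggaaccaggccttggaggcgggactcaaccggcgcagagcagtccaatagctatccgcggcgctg
Mcm6: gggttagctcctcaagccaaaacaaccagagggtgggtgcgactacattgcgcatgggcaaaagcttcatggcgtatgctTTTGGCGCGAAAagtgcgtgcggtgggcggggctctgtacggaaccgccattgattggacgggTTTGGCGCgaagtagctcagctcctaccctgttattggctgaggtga
Cdc6: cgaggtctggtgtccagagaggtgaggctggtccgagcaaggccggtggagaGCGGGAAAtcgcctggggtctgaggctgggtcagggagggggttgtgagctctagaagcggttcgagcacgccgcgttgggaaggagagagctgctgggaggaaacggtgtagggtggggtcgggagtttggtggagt
Uhrf1: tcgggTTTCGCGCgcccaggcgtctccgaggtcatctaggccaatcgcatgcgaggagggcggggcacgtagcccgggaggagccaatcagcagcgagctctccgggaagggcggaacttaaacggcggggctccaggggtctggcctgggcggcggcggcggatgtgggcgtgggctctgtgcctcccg
Orc1: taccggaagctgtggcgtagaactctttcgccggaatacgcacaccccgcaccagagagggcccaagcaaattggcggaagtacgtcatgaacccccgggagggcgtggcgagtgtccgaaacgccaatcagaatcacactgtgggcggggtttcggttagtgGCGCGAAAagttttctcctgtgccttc
Gins3: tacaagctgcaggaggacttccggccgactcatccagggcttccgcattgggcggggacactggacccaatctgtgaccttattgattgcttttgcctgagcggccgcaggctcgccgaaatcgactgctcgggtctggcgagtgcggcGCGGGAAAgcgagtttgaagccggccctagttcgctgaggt
Rfc3: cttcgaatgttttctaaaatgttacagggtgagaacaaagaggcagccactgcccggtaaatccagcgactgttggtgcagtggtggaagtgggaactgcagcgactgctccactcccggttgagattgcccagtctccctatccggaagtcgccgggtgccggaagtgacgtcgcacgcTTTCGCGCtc
In Mcm5 and Mcm6, 2 matches on opposite strands overlap by 4 bases, and Mcm6 holds another match at bases -47 to -40. Counted from the start site, the match of Orc1 lies at bases -27 to -20 and that of Rfc3 at bases -10 to -3. Rfc3 holds another one at bases 1 to 8, outside the printed stretch. A match is a run of letters and does not show that a factor binds there.

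The MCM helicase, whose 6 subunits form the ring that unwinds DNA, moved almost as a whole below 120 ppm. Of its 6 genes 4 rose at 5 ppm, 6 at 10 and 20 ppm, and 5 at 40 ppm. Mcm2 (probe set 1448777_PM_at) read 6.66, 6.26, 6.28, 6.29 and 6.11 on the 5 arrays at 0 ppm, 6.80, 7.13, 6.79, 7.18 and 7.05 at 5 ppm and 7.83, 7.08, 7.80, 7.41 and 7.30 at 10 ppm. Every array at 5 and 10 ppm was above every array at 0 ppm, where replicate 1 was the highest. The difference was 0.67 ± 0.15 at 5 ppm (1.59-fold, adjusted p = 0.0116) and 1.16 ± 0.15 at 10 ppm (2.24-fold, adjusted p = 9.29e-07). At 120 ppm it was 1.96 ± 0.15 (3.88-fold).

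Mcm5 (probe set 1415945_PM_at) read 5.71, 5.21, 5.05, 5.28 and 5.52 at 0 ppm, 5.99, 6.33, 6.05, 6.51 and 6.27 at 5 ppm, 7.17, 6.51, 7.12, 6.79 and 6.66 at 10 ppm and 7.62, 8.03, 7.81, 7.29 and 7.46 at 120 ppm. None of these groups overlapped with 0 ppm. The difference was 1.5 ± 0.15 at 10 ppm (adjusted p = 1.01e-08) and 2.29 ± 0.15 at 120 ppm. As all arrays at 0 ppm lay below the nonspecific control, these are folds of at least 1.71-fold and at least 2.96-fold. Mcm3 read 6.35, 5.86, 5.94, 5.79 and 5.95 at 0 ppm, 6.27, 6.65, 6.34, 6.88 and 6.65 at 5 ppm and 7.19, 6.47, 7.10, 6.82 and 6.70 at 10 ppm. At 5 ppm 2 of its arrays lay within the range of 0 ppm, set by replicate 1, and at 10 ppm none did. The differences were 0.58 ± 0.14 and 0.88 ± 0.14 ( adjusted p = 0.0276 and 3.58e-05). Mcm7 read 7.48, 7.53, 7.32, 7.23 and 7.32 at 0 ppm and 7.93, 7.68, 8.03, 7.78 and 7.72 at 10 ppm, a difference of 0.45 ± 0.12 (1.37-fold, adjusted p = 0.0125).

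Mcm6 and Mcm4, partners of Mcm2 in the same ring, rose with the others at 10 and 20 ppm and stood lower at 120 ppm. Mcm6 also rose at 40 ppm, by 0.84. Mcm6 (probe set 1416251_PM_at) read 7.62, 7.52, 7.61, 7.67 and 7.64 at 0 ppm, 8.07, 8.07, 8.25, 8.48 and 8.53 at 5 ppm and 9.10, 8.55, 8.71, 8.66 and 8.65 at 10 ppm, with no overlap. It rose by 0.67 ± 0.16 at 5 ppm (adjusted p = 0.0232) and 1.12 ± 0.16 at 10 ppm (adjusted p = 5.86e-06, 2.17-fold). At 120 ppm the arrays read 6.86, 6.80, 6.73, 5.99 and 7.58, and 4 of the 5 were below every array at 0 ppm. Mcm4 read 6.97, 6.79, 7.02, 7.26 and 7.24 at 0 ppm, 7.95, 7.90, 7.72, 8.08 and 8.0 at 10 ppm, 7.47, 7.68, 7.50, 7.17 and 7.43 at 40 ppm and 5.24, 5.66, 5.18, 5.26 and 6.54 at 120 ppm. It rose at 10 ppm by 0.88 ± 0.20 (adjusted p = 0.00194), and missed the threshold at 40 ppm (0.39 ± 0.20, adjusted p = 0.217). All 5 arrays at 120 ppm lay below every array at 0 ppm. The differences at 120 ppm were -0.82 ± 0.16 for Mcm6 and -1.47 ± 0.20 for Mcm4 (adjusted p = 3.43e-05 and 4.28e-08). With the poly-A level as a covariate they turned to 0.12 and 0.21 with no call (adjusted p = 0.828 and 0.684). That level was 7.93 to 8.81 on the 120 ppm arrays and 6.10 to 7.06 on those of lower doses, so the covariate cannot separate dose from array. The 4 other subunits were higher at 120 than at 0 ppm.

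**Figure D3:**
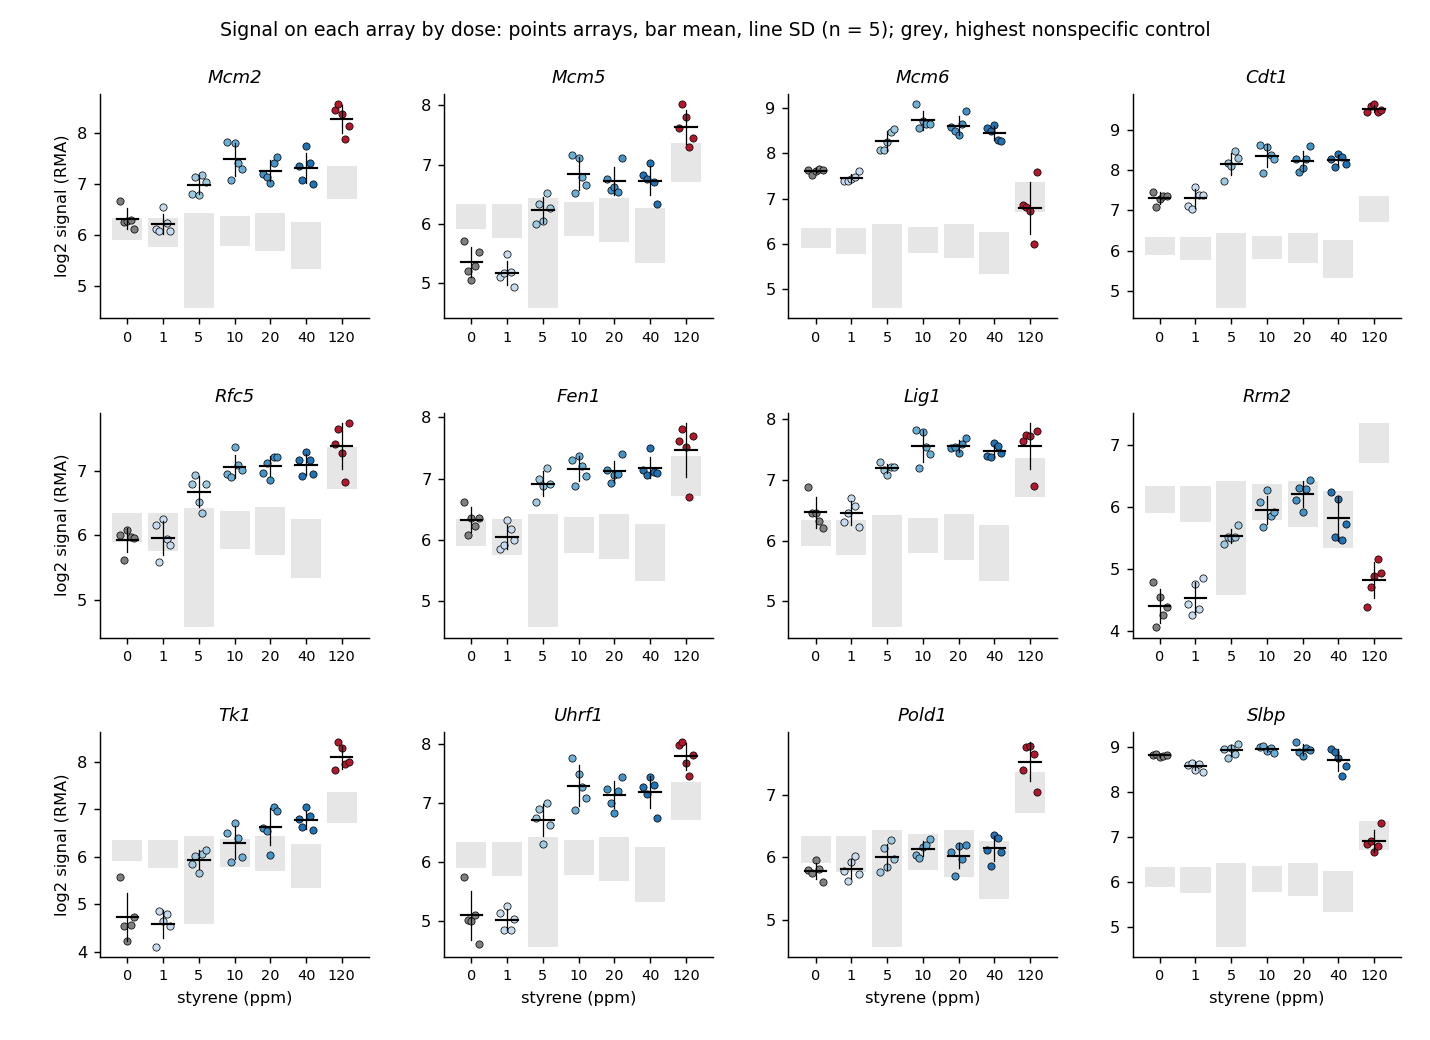
Log2 signal on each array (points) by styrene dose in ppm for 12 genes, with group mean (bar) and SD (line, n = 5), and in grey the range over the group's arrays of the highest nonspecific control. Mcm2, Mcm5, Cdt1, Tk1 and Uhrf1 have their highest mean at 120 ppm, Rrm2 lies below the grey range there, and Slbp moves from 8.77 to 8.86 at 0 ppm to 6.68 to 7.32 at 120 ppm.

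Of the 4 licensing genes, the loading factors Cdt1 and Cdc6 rose from 5 ppm upward, and Orc1 and Orc6, subunits of the origin recognition complex, did not pass the threshold from 1 to 40 ppm on their brightest probe sets. Cdt1 (probe set 1424143_PM_a_at) read 7.46, 7.08, 7.29, 7.36 and 7.35 at 0 ppm, 7.72, 8.17, 8.10, 8.47 and 8.29 at 5 ppm, 8.63, 7.93, 8.58, 8.37 and 8.28 at 10 ppm and 9.44, 9.59, 9.64, 9.44 and 9.49 at 120 ppm. Every array at these doses was above every array at 0 ppm, and the arrays at 120 ppm were above all others of the series. It rose by 0.84 ± 0.13 (1.79-fold, adjusted p = 7.94e-05) at 5 ppm, 1.05 ± 0.13 at 10 ppm and 2.21 ± 0.13 (4.64-fold) at 120 ppm. Cdc6 read 4.80, 4.46, 4.25, 4.37 and 4.49 at 0 ppm, 5.55, 5.49, 5.26, 5.29 and 5.37 at 5 ppm and 6.02, 5.53, 5.92, 5.78 and 5.38 at 10 ppm. The arrays at both doses were above those at 0 ppm, by 0.92 ± 0.16 and 1.25 ± 0.16 (adjusted p = 0.000624 and 1.05e-06). Most of these arrays were below the nonspecific control, so no fold is given. From 40 to 120 ppm Cdt1 rose by 1.28 ± 0.13 while Cdc6 fell by 0.44 (adjusted p = 0.0167).

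Orc1 read 4.14, 3.87, 3.91, 4.10 and 4.23 at 0 ppm and 3.75, 3.91, 3.91, 3.92 and 4.48 at 10 ppm, all below the nonspecific control, with a difference of -0.06 ± 0.15 ( adjusted p = 0.902). Orc6, measured above that control at these doses, read 6.79, 6.77, 6.74, 6.74 and 6.61 at 0 ppm, 6.67, 6.60, 6.84, 6.76 and 6.71 at 10 ppm and 4.59, 5.02, 4.99, 5.45 and 5.19 at 120 ppm. The arrays at 10 ppm overlapped with those at 0 ppm (-0.01 ± 0.12, adjusted p = 0.971), and those at 120 ppm were all below them (-1.68 ± 0.12, adjusted p = 4.17e-14). The difference of Orc1 at 120 ppm was 0.50 ± 0.15 (adjusted p = 0.00424), again below that control. Its other probe set, also below the control on all 35 arrays, was called higher at 10 ppm (0.35 ± 0.10, adjusted p = 0.0301 over all probe sets).

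Among the 6 genes that activate the helicase, Gins2 rose at 5 ppm. Gins2, Gins1, Mcm10 and Cdc45, the last being the partner of GINS and MCM in the working helicase, rose at 10, 20 and 40 ppm, 4 genes in all. Gins2 read 4.96, 4.76, 5.00, 4.66 and 4.87 at 0 ppm, 6.43, 5.62, 6.31, 5.92 and 5.83 at 10 ppm and 6.80, 6.96, 6.85, 5.88 and 7.08 at 120 ppm. Neither dose overlapped with 0 ppm, and replicate 4 was the lowest array at 120 ppm. The differences were 1.17 ± 0.17 (adjusted p = 6.12e-06) and 1.86 ± 0.17 (at least 1.56-fold). Mcm10 read 4.53, 4.71, 4.55, 4.33 and 4.36 at 0 ppm and 5.72, 5.22, 5.36, 5.23 and 5.37 at 10 ppm, a difference of 0.88 ± 0.14 (adjusted p = 1.92e-05). The differences of Gins1 and Cdc45 at 10 ppm were 0.82 ± 0.15 and 0.61 ± 0.11 (adjusted p = 0.000153 and 7.69e-05). Mcm10, Gins1 and Cdc45 were each above the nonspecific control on only 1 of the 35 arrays.

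The other two GINS subunits gave no call from 1 to 40 ppm. Gins3 read 4.35, 4.35, 4.44, 4.44 and 4.42 at 0 ppm and 4.26, 4.60, 4.69, 4.46 and 4.58 at 10 ppm, all below the nonspecific control, and differed by 0.12 ± 0.14 (adjusted p = 0.715). Gins4 (probe set 1417913_PM_at), above that control at both of these doses, read 7.86, 7.73, 7.81, 7.78 and 7.63 at 0 ppm and 7.50, 7.55, 7.86, 7.63 and 7.65 at 10 ppm. At 120 ppm it read 5.36, 4.87, 5.97, 4.62 and 6.85, and only 1 of these arrays was above the control. Its arrays at 10 ppm overlapped with 0 ppm (-0.12 ± 0.22, adjusted p = 0.836). At 120 ppm it had the lowest difference of the 44, -2.23 ± 0.22 (at least 1.49-fold lower, adjusted p = 9.35e-11).

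Pcna, the ring that holds polymerases on DNA, and 2 of the 4 measured clamp loader subunits, Rfc4 and Rfc5, rose at 10 and 20 ppm, and Rfc5 already at 5 ppm. Pcna read 10.83, 10.84, 10.79, 10.75 and 10.80 at 0 ppm, 11.28, 11.12, 11.07, 11.11 and 11.10 at 10 ppm and 10.37, 10.59, 10.62, 10.71 and 10.39 at 120 ppm. The arrays within each group were close together and the groups did not overlap. The difference at 10 ppm was 0.34 ± 0.07 (1.26-fold, adjusted p = 0.000493). At 120 ppm Pcna was lower by 0.27 than at 0 ppm, and 0.13 higher when arrays were centred on their medians. Rfc5 read 6.01, 5.62, 6.09, 5.98 and 5.95 at 0 ppm, 6.80, 6.94, 6.51, 6.35 and 6.79 at 5 ppm and 6.96, 6.90, 7.37, 7.09 and 7.00 at 10 ppm. Both doses lay above 0 ppm with no overlap, and the differences were 0.75 ± 0.14 and 1.13 ± 0.14 (at least 1.52-fold and at least 1.98-fold, adjusted p = 0.00134 and 4.85e-07).

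Rfc4 read 6.44, 6.13, 6.38, 6.32 and 6.28 at 0 ppm, 7.00, 6.61, 7.17, 7.17 and 6.93 at 10 ppm, 7.16, 7.28, 7.52, 5.86 and 6.42 at 40 ppm and 4.62, 4.95, 5.70, 5.46 and 5.18 at 120 ppm. It rose by 0.67 ± 0.20 at 10 ppm (1.59-fold, adjusted p = 0.0226) and missed the threshold at 40 ppm (adjusted p = 0.0715), where replicate 4 lay below every array at 0 ppm. At 120 ppm all 5 arrays did (-1.13 ± 0.20). Rfc2 read 8.54, 8.53, 8.31, 8.28 and 8.31 at 0 ppm and 8.60, 8.29, 8.68, 8.45 and 8.48 at 10 ppm, with overlap and a difference of 0.11 ± 0.10 (adjusted p = 0.594). It rose by 0.29 ± 0.10 at 40 ppm (adjusted p = 0.0414) and 0.87 ± 0.10 at 120 ppm. Rfc3 did not pass the threshold from 1 to 40 ppm (0.38 ± 0.20 at 10 ppm, adjusted p = 0.275) and was lower at 120 ppm by 0.75. At 120 ppm 2 loader subunits were higher (Rfc2 and Rfc5) and 2 lower (Rfc3 and Rfc4).

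Of the 7 polymerase and primase genes, Pole2 rose at 5 ppm. Pola1, Pole, Pole2 and Prim1 rose at 10 ppm, and Pole, Pole2, Prim1 and Prim2 at 20 ppm, 4 genes each. Pola2 and Prim2 rose at 40 ppm. Pole2, an accessory subunit of the leading-strand polymerase, read 5.21, 4.66, 4.99, 5.24 and 4.87 at 0 ppm, 5.30, 5.85, 5.51, 5.63 and 5.72 at 5 ppm and 5.60, 5.30, 5.65, 5.93 and 5.82 at 10 ppm. Its arrays did not overlap with 0 ppm at either dose (0.61 ± 0.15 and 0.66 ± 0.15, adjusted p = 0.0249 and 0.00188). Pola1, the catalytic subunit of the priming polymerase, read 4.22, 4.42, 3.67, 4.29 and 4.30 at 0 ppm and 5.11, 5.22, 4.43, 4.60 and 4.94 at 10 ppm. Those groups did not overlap (0.68 ± 0.18, adjusted p = 0.0112). No Pola1 array at these doses and only 3 of these Pole2 arrays lay above the nonspecific control.

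Pold1, the catalytic subunit of the lagging-strand polymerase, and Pola2 took another course. Pold1 read 5.80, 5.74, 5.95, 5.80 and 5.61 at 0 ppm, 6.04, 5.99, 6.17, 6.19 and 6.29 at 10 ppm and 7.39, 7.76, 7.78, 7.64 and 7.04 at 120 ppm. The arrays at 10 ppm lay above those at 0 ppm without passing the threshold (0.35 ± 0.12, adjusted p = 0.06). At 120 ppm the difference was 1.74 ± 0.12 (at least 2.73-fold, adjusted p = 4.64e-14). Pola2 read 6.55, 6.07, 6.01, 6.11 and 6.09 at 0 ppm, 6.35, 6.27, 6.75, 6.43 and 6.42 at 10 ppm and 7.32, 7.52, 7.48, 6.63 and 7.26 at 120 ppm. Replicate 1 at 0 ppm was above 4 of the arrays at 10 ppm, and the difference there was 0.27 ± 0.13 (adjusted p = 0.189), against 1.07 ± 0.13 at 120 ppm. Pole and Prim1 had differences of 0.53 ± 0.16 and 0.60 ± 0.13 at 10 ppm, and -0.05 ± 0.16 and -0.03 ± 0.13 at 120 ppm with no call. For Prim1 the value at 120 ppm was 0.36 with arrays centred on their medians and 0.47 after a repeated quantile normalization. Prim2 was 0.52 ± 0.16 at 20 ppm and -1.27 ± 0.16 at 120 ppm (adjusted p = 0.0213 and 9.06e-09).

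Fen1 and Lig1, which trim and join Okazaki fragments, both rose at all doses from 5 to 120 ppm. Fen1 read 6.63, 6.08, 6.35, 6.23 and 6.37 at 0 ppm, 6.63, 7.00, 6.88, 7.18 and 6.91 at 5 ppm and 7.31, 6.88, 7.38, 7.20 and 7.04 at 10 ppm. At 5 ppm 4 of 5 arrays were above all arrays at 0 ppm, and at 10 ppm all were. The differences were 0.59 ± 0.15 and 0.83 ± 0.15 (1.5-fold and 1.78-fold, adjusted p = 0.0377 and 0.000154). Lig1 read 6.88, 6.46, 6.45, 6.32 and 6.21 at 0 ppm, 7.29, 7.15, 7.08, 7.20 and 7.21 at 5 ppm, 7.82, 7.19, 7.79, 7.53 and 7.42 at 10 ppm and 7.63, 7.74, 7.72, 6.90 and 7.80 at 120 ppm. No group overlapped with 0 ppm, although replicate 4 at 120 ppm lay close to replicate 1, the highest of the air arrays. Its differences were 0.72 ± 0.14, 1.08 ± 0.14 and 1.09 ± 0.14 (1.65-fold, 2.12-fold and 2.13-fold).

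Of the 3 subunits of RPA, the protein that coats single-stranded DNA, none passed limma's threshold at 5, 10 or 20 ppm. At 5 ppm 0 and at 10 ppm all 3 had an unadjusted p under 0.05. There Rpa1 and Rpa2 had differences of 0.22 ± 0.09 and 0.30 ± 0.15, and Rpa3 of -0.23 ± 0.11 (adjusted p = 0.137, 0.21 and 0.192). At 40 ppm Rpa1 rose by 0.29 ± 0.09 (adjusted p = 0.032). At 120 ppm Rpa2 and Rpa3 were higher (by 0.37 and 0.26) and Rpa1 lower (by 0.34). Rpa1 turned to 0.055 with centred arrays and Rpa3 to -0.58 with the poly-A covariate.

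All 5 nucleotide supply genes rose at 10 and 20 ppm, and Tk1 and Rrm2 stood at the top of the 44 with Uhrf1. Tk1 (probe set 1416258_PM_at), the S-phase thymidine kinase, read 5.57, 4.54, 4.22, 4.56 and 4.72 at 0 ppm, 5.84, 6.02, 5.65, 6.05 and 6.13 at 5 ppm, 6.49, 5.88, 6.70, 6.40 and 6.00 at 10 ppm and 7.81, 8.41, 8.28, 7.95 and 8.0 at 120 ppm. Replicate 1 at 0 ppm lay above the other 4 and still below every array from 5 ppm upward. The differences were 1.22 ± 0.20, 1.57 ± 0.20 and 3.37 ± 0.20 (adjusted p = 0.000138, 4.85e-07 and 6.92e-16). That of 120 ppm was the largest log2 difference of the 44 and a fold of at least 4.04-fold. At 20 and 40 ppm Tk1 stood 1.91 ± 0.20 and 2.05 ± 0.20 above 0 ppm.

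Rrm2 (probe set 1416120_PM_at), the S-phase subunit of ribonucleotide reductase, read 4.79, 4.06, 4.55, 4.26 and 4.38 at 0 ppm and 5.41, 5.51, 5.51, 5.52 and 5.72 at 5 ppm. It read 6.11, 6.31, 5.92, 6.29 and 6.45 at 20 ppm and 4.39, 4.72, 4.88, 5.17 and 4.94 at 120 ppm. The arrays at 5 and 20 ppm lay above all arrays at 0 ppm, and 2 of those at 120 ppm lay within the range of 0 ppm. Rrm2 rose by 1.13 ± 0.16, 1.56 ± 0.16, 1.81 ± 0.16 and 1.41 ± 0.16 at 5, 10, 20 and 40 ppm, with adjusted p of at most 1.29e-05. From 40 to 120 ppm its difference was -1.0 ± 0.16. No array at 0 or 120 ppm was above the nonspecific control. Its partner Rrm1 read 7.41, 7.08, 7.25, 7.19 and 7.43 at 0 ppm, 7.86, 7.48, 7.89, 7.85 and 7.73 at 10 ppm and 5.86, 5.84, 5.81, 5.52 and 6.54 at 120 ppm. All arrays at 10 ppm were above and all at 120 ppm below those at 0 ppm, with differences of 0.49 ± 0.14 (1.40-fold, adjusted p = 0.0182) and -1.35 ± 0.14 (at least 1.08-fold lower).

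Dut, which removes dUTP, read 7.45, 7.12, 7.09, 6.97 and 6.84 at 0 ppm, 7.66, 7.29, 7.67, 7.45 and 7.34 at 10 ppm and 8.19, 8.47, 8.42, 7.86 and 8.35 at 120 ppm. At 10 ppm 3 of its 5 arrays were above all of 0 ppm, and at 120 ppm all were. It rose by 0.39 ± 0.13 (adjusted p = 0.0381) and 1.16 ± 0.13. Tyms, thymidylate synthase, rose by 0.84 ± 0.14, 1.03 ± 0.14 and 0.82 ± 0.14 at 10, 20 and 40 ppm (1.79-fold at 10 ppm, adjusted p = 7.55e-05). At 120 ppm Tyms read 0.35 lower than at 0 ppm, and higher by 0.042 with centred arrays, 0.15 after a repeated quantile normalization and 0.10 as the mean of its probe sets.

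Uhrf1 (probe set 1415810_PM_at), which recognises hemimethylated DNA behind the fork, had the largest difference of the 44 at 5 ppm and at 10 ppm. It read 5.75, 5.02, 5.01, 5.10 and 4.61 at 0 ppm and 5.14, 4.86, 5.26, 4.86 and 5.03 at 1 ppm. It read 6.75, 6.89, 6.30, 6.99 and 6.64 at 5 ppm, 7.75, 6.88, 7.49, 7.28 and 7.08 at 10 ppm and 7.97, 8.03, 7.67, 7.46 and 7.81 at 120 ppm. The 1 ppm arrays lay within the range of 0 ppm, and all arrays from 5 ppm upward lay above it. The differences at 5, 10 and 120 ppm were 1.61 ± 0.17, 2.20 ± 0.17 and 2.69 ± 0.17 (adjusted p = 6.66e-08, 2.21e-11 and 4.47e-15). As folds they were at least 1.56-fold, at least 2.33-fold and at least 3.27-fold. Dnmt1, the methyltransferase that Uhrf1 brings to the fork, missed the threshold at 5 ppm (0.24 ± 0.08, adjusted p = 0.338) and rose by 0.45 ± 0.08 at 10 ppm (1.36-fold, adjusted p = 0.000298). It stood at about the same difference at 20, 40 and 120 ppm (0.45, 0.44 and 0.37).

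The last 4 members control entry into S phase or the histone messages made in it, and none of them rose at 5 ppm. The cyclin Ccne1 read 4.40, 4.22, 4.30, 4.39 and 4.21 at 0 ppm and 4.83, 4.86, 5.03, 4.62 and 4.57 at 10 ppm. The second E-type cyclin, Ccne2, read 2.86, 2.97, 2.88, 2.96 and 2.94 at 0 ppm and 3.69, 3.61, 3.11, 3.22 and 3.40 at 10 ppm. Both groups at 10 ppm were above 0 ppm with no overlap, at signals below the nonspecific control (0.48 ± 0.15 and 0.48 ± 0.15, adjusted p = 0.033 and 0.027). E2f1, an activator of S-phase genes, read 6.23, 5.86, 6.00, 6.06 and 6.00 at 0 ppm, 6.26, 5.90, 6.31, 6.12 and 6.02 at 10 ppm and 7.40, 7.71, 7.11, 7.07 and 7.15 at 120 ppm. It overlapped at 10 ppm (0.09 ± 0.12, adjusted p = 0.747) and rose by 1.26 ± 0.12 at 120 ppm (at least 2.29-fold). Slbp (probe set 1460168_PM_at), which binds the end of replication-dependent histone mRNA, read 8.83, 8.86, 8.77, 8.81 and 8.82 at 0 ppm, 9.02, 9.03, 8.92, 8.98 and 8.88 at 10 ppm and 6.86, 6.91, 6.68, 6.81 and 7.32 at 120 ppm. The 10 ppm arrays were just above those of 0 ppm with no call (0.15 ± 0.10, adjusted p = 0.419). All at 120 ppm were below (-1.90 ± 0.10, at least 2.90-fold lower, adjusted p = 5.45e-17).

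Single arrays weighed on some calls. At 5 ppm leaving out each of the 10 arrays in turn gave 9 to 15 members, with 9 left when replicate 4 at 5 ppm was dropped. Fen1 lost its call in 8 of the 10 fits, Mcm3 in 7, Pole2 in 6, Mcm6 in 4 and Mcm2 in 2. At higher doses Prim2 at 40 ppm lost its call in 8 of 10 fits, Rfc2 and Rpa1 at 40 ppm, their only calls below 120 ppm, in 7 each, and Dut at 10 ppm in 7. Ccne1 and Pole at 10 ppm and Mcm7 at 20 ppm lost theirs in 6. The counts at 10, 20 and 40 ppm stayed between 25 and 29, 24 and 29, and 22 and 28. Without the 120 ppm arrays in the fit, 16, 34, 32 and 31 members rose at 5, 10, 20 and 40 ppm, and 40 passed the F test. Over all genes 264, 2864, 3243 and 3095 changed in that fit at these doses, against 198, 2016, 2255 and 2177 in the main fit.

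At 120 ppm higher and lower calls stood side by side within most role groups. The members' share of lower calls lay near the 31.9% of all genes. Their share of higher calls was above the 42.9% of all genes, which was not tested. The lower set was Mcm4, Mcm6, Orc6, Gins4, Pcna, Rfc3, Rfc4, Pole2, Prim2, Rpa1, Rrm1, Tyms and Slbp, with Gins4, Slbp, Orc6 and Mcm4 at the low end (-2.23, -1.90, -1.68 and -1.47). At the high end stood Tk1, Uhrf1, Mcm5, Cdt1 and Mcm2 (3.37, 2.69, 2.29, 2.21 and 1.96). With arrays centred on their medians the split was 28 higher and 8 lower, after a repeated quantile normalization 27 and 13, and with the poly-A level as a covariate 12 and 7. Against 40 ppm it was 13 higher and 19 lower, and 22 and 14 with centred arrays, 18 and 18 after quantile normalization and 3 and 11 with the covariate. As said for Mcm4 and Mcm6, the poly-A covariate cannot separate dose from array. Of the 34 members that had risen at some dose from 5 to 40 ppm, 20 were higher, 9 lower and 5 uncalled at 120 ppm. Of the other 10, 5 were higher (Orc1, Pold1, Rpa2, Rpa3 and E2f1), 4 lower (Orc6, Gins4, Rfc3 and Slbp) and 1 uncalled (Gins3). Of the 4 bins of genes by level at 0 ppm, the second from the bottom held 18 members, 11 of them higher and 2 lower, against 43.1% and 21.5% of all genes in it. The third from the bottom held 18 members too, 10 of them higher and 8 lower, against 37.6% and 49.4%.

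Other probe sets of the same genes gave a second reading. For 25 members there were 33 further single-gene probe sets. For this reading calls were taken from a fit over all probe sets. At 10 ppm 12 of the 19 further sets of members called in that fit were themselves higher, 7 gave no call and 0 were lower. Dut rose in the main fit but missed the threshold in that one (adjusted p = 0.0523). Its further set, not among the 19, gave no call (0.06 ± 0.12). The differences of Rrm2 and Mcm2 on their further sets were 1.74 ± 0.22 and 1.13 ± 0.12. At 120 ppm 20 of 29 further sets were called in the same direction, 3 in the opposite direction (2 of Tyms and 1 of Slbp, dim sets below the nonspecific control on all arrays) and 6 gave no call. The further set of Orc1, given above, was the only one at 10 ppm called for a member with no call. At 120 ppm Rrm1 fell on both of its sets (-1.35 and -1.51), while Prim1 read -0.03 on one and -1.33 on the other, and Rrm2 0.41 and -0.25. The call of Rrm2 at 120 ppm was lost in 4 of 12 alternatives and 2 of 10 fits without one array.

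Lists of genes that act beside the 44 in copying, packing and repairing DNA were read in the same fit. Of all genes 1.13%, 5.17%, 6.45%, 7.69% and 42.9% were higher at 5, 10, 20, 40 and 120 ppm, and 31.9% were lower at 120 ppm. Of 25 other fork and origin genes 0 rose at 5 ppm in limma's test, where 3 had an unadjusted p under 0.05. At 10, 20 and 40 ppm 8, 5 and 4 rose. Among those of 10 ppm were Wdhd1, a fork scaffold (0.75 ± 0.16, adjusted p = 0.000876), and Pold2, an accessory subunit of the Pold1 enzyme (0.56 ± 0.14, adjusted p = 0.00474). At 120 ppm 6 of the 25 were higher and 14 lower. Pold2 had a difference of 2.06 (4.16-fold) and Orc5, an origin recognition subunit, of -2.27 (at least 1.42-fold lower). For Wdhd1 at 10 ppm the bound set by the nonspecific control was not above 1, so no fold is given. Of 4 chromatin assembly genes 1, 3, 3 and 2 rose at 5, 10, 20 and 40 ppm. The histone chaperone Asf1b led them, with 0.70 ± 0.13 at 5 ppm and 1.07 ± 0.13 at 10 ppm (at least 1.33-fold and at least 1.73-fold).

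Of 18 other nucleotide synthesis genes 1, 5, 6 and 7 rose at 5, 10, 20 and 40 ppm, and at 120 ppm 8 were higher and 6 lower. These shares at 120 ppm lay near the 42.9% and 31.9% of all genes. Ctps, which makes CTP, had the largest difference of the list at 10 and 20 ppm (1.25 ± 0.14 and 1.55 ± 0.14, adjusted p = 5.62e-08 and 5.92e-10). Dck, deoxycytidine kinase, was the one that rose at 5 ppm (0.52 ± 0.12, at least 1.33-fold, adjusted p = 0.0157). Of 14 replication-coupled repair genes 1, 4, 4 and 2 rose at these doses, and 10 were higher and 1 lower at 120 ppm. Ung, which excises uracil from DNA, rose by 0.50 ± 0.12 at 5 ppm and 0.70 ± 0.12 at 10 ppm. Of 19 G1/S regulators 1 rose at 5 ppm (E2f8, 0.50 ± 0.13), and at 10 ppm 6 rose and 1 fell. For Ung and E2f8 at 5 and 10 ppm the bound set by the nonspecific control was not above 1, so no fold is given. The growth regulator Myc rose by 0.59 ± 0.14, 1.06 ± 0.14 and 1.14 ± 0.14 at 10, 20 and 40 ppm. At 120 ppm 8 of the 19 were higher and 7 lower, again near the shares of all genes. Among the 7 was the pocket protein gene Rbl2 (-3.44, at least 1.21-fold lower).

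Of 28 mitosis genes 4, 14, 18 and 14 rose and 0 fell at 5, 10, 20 and 40 ppm. The mitotic kinase Cdk1 had differences of 1.16 ± 0.22, 1.47 ± 0.22, 1.91 ± 0.22 and 1.88 ± 0.22 at those doses (at least 1.30-fold, at least 1.60-fold, at least 2.19-fold and at least 2.13-fold). For Top2a, which untangles the copied strands, the differences were 0.97 ± 0.19, 1.75 ± 0.19, 1.81 ± 0.19 and 1.25 ± 0.19. Its bound was not above 1 at any of these doses, so no fold is given. At 120 ppm 14 of the 28 were higher and 0 lower, against 42.9% and 31.9% of all genes. Cdc20 led them (2.10 ± 0.20, at least 2.60-fold). The mean level of the 28 genes at 0 ppm was 4.50, within the second bin from the bottom of all genes. In that bin 43.1% of genes were higher and 21.5% lower at 120 ppm, and in the dimmest bin 58.4% and 0.96%. The part of this low level in the lack of lower calls was not tested. Whether the lists differ from each other was not tested.

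**Figure D4:**
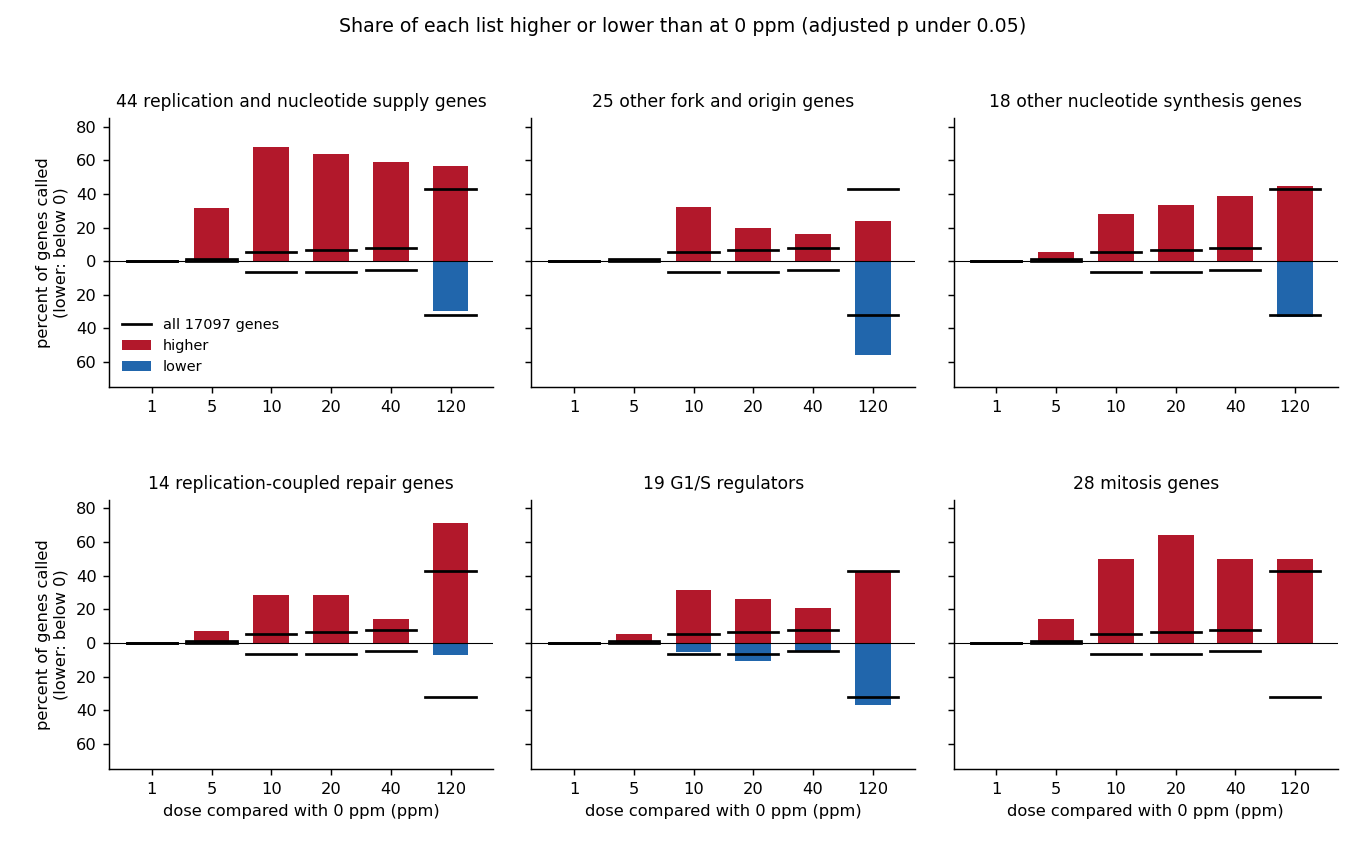
Percent of genes in 6 lists that were higher (red, upward) or lower (blue, downward) than at 0 ppm with adjusted p under 0.05, at each dose in ppm, with black lines for all 17097 genes. The bars of the 44 genes stand for 14, 30, 28, 26 and 25 higher members at 5, 10, 20, 40 and 120 ppm, and blue bars for lower members appear among them at 120 ppm, with 13.

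Markers of lung cell types were read on the same arrays. For the alveolar type 2 cell 4 of 5 and for the alveolar type 1 cell 5 of 5 markers were above the nonspecific control at every dose. At 10 ppm the lists whose median moved most from 0 ppm were mesothelial cell (-0.63; 1 marker rose and 3 of 5 fell), neutrophil (-0.62; 1 of 5 fell), fibroblast (-0.41; 2 rose and 2 of 7 fell) and alveolar macrophage (0.39; 2 rose and 1 of 6 fell). Mean levels of the mesothelial list on single arrays were 8.28 to 8.81 at 0 ppm and 7.70 to 8.17 at 10 ppm, with no overlap. Those of the neutrophil list were 5.86 to 7.70 and 5.40 to 6.52, of the fibroblast list 8.86 to 9.14 and 8.86 to 9.04, and of the macrophage list 8.56 to 9.05 and 8.73 to 9.23, all with overlap. At 1 ppm, where no member changed, the mesothelial list lay at 7.36 to 8.03. Of 7 T cell markers 0 were above the nonspecific control on all arrays of any dose group. The club cell, the airway cell that metabolises styrene, had 6 markers. Of these 3 fell at 10 and 20 ppm, 4 at 40 ppm and 5 at 120 ppm, and 0 rose at these doses. At 10 ppm the differences of single markers ran from -0.67 to 1.31, with a median of -0.18. Their list means were 11.3 to 12.6 at 0 ppm and 11.8 to 12.4 at 10 ppm, so the list as a whole stayed within the range of 0 ppm there. At 40 ppm they were 11.4 to 12.1, also within that range, and at 120 ppm 10.7 to 11.6. At 120 ppm 5 of 7 endothelial markers fell (median -1.37; list means 9.96 to 10.1 at 0 ppm and 8.88 to 9.38 at 120 ppm). Alveolar macrophage means went from 8.56 to 9.05 at 0 ppm to 7.94 to 8.21 at 120 ppm, and 4 of 6 markers fell. Markers of erythroid precursors, cells that divide, were higher on every array at 120 ppm (list means 8.17 to 8.79) than at 0 ppm (7.90 to 8.11), and 3 of 6 rose and 0 fell; at 10 ppm the list means were 7.78 to 7.92. Over all genes 5.17% rose at 10 ppm and 42.9% at 120 ppm. The shares that fell were 6.62%, 6.74%, 5.04% and 31.9% at 10, 20, 40 and 120 ppm. The part of these cell type differences in the members' levels was not tested.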

How the data were processed

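The authors' deposited table gives log2 signals of 45141 probe sets on 35 Affymetrix HT MG-430 PM arrays. RMA and Partek are named for it in the submitters' processing notes, with settings not given in the sources used here. Control probe sets (104) were left out, 28898 probe sets had 1 gene symbol in the platform annotation, and a gene was read from its brightest probe set (17097 genes). Differences were fitted with limma 3.58.1 in R 4.3.3 on all 35 arrays as 7 group means, with Benjamini-Hochberg adjustment over all 17097 genes for each comparison. The members and lists were chosen with earlier results of these data known. Values in every array are given for members called at 5 ppm and above the highest nonspecific control at 10 ppm, and for the 2 members with the largest and the 2 with the smallest absolute difference at 10 ppm in each role group of 4 or more. Of each related list up to 4 called members with the largest difference may be named, and of cell type lists those with the largest median difference. The fit was checked on simulated data for 10 ppm against 0 ppm with 17097 genes, where it recovered 10% of 1.25-fold, 78% of 1.5-fold and 90% of 2-fold changes. Alternatives covered probe set choice, normalization, weights, thresholds, blocks and left-out arrays. Arrays carry no read depth, and their number limits the precision.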

Additional observations from a re-analysis of the deposited data

Results flagged for a closer look

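In 22 of the 308 sets of 5 arrays (44 members at 7 doses) the highest or lowest array lay far from the other 4 for its group's range (Dixon's test); chance flags about 1 in 20 such sets. At 0 ppm replicate 1 was high for Mcm3 (6.35) and Pola2 (6.55), replicate 2 low for Rfc5 (5.62) and replicate 3 low for Pola1 (3.67). At 1 ppm replicate 1 was low for Rrm1 (6.92) and replicate 5 low for Rpa3 (7.40). At 5 ppm replicate 1 was high for Rpa1 (9.46), replicate 4 low for Prim2 (5.52) and replicate 5 low for E2f1 (5.66). At 10 ppm replicate 1 was high for Mcm6 (9.10) and Pcna (11.28), and replicate 5 for Orc1 (4.48). Replicate 5 at 20 ppm was high for Pola1 (4.92), and replicate 3 at 40 ppm for Orc1 (4.65), Pola1 (4.73) and Fen1 (7.49). At 120 ppm replicate 4 was low for Gins2 (5.88), Fen1 (6.70) and Lig1 (6.90) and high for Ccne2 (4.13), replicate 5 was high for Gins1 (4.90) and replicate 2 for Pole (4.07).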

How the results depend on the processing

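The counts of members changed at 10, 20 and 40 ppm stayed within 1.5 times of the main 30, 28 and 26 under the alternatives run. The exception was 40 ppm with a 1.5-fold limit (15). That limit was set on the log2 difference as measured, with no bound for dim genes. At 5 ppm the count of 14 became 22 with array weights. Without one array at a time it ran from 9 to 15 at 5 ppm, 25 to 29 at 10 ppm, 24 to 29 at 20 ppm, 22 to 28 at 40 ppm and 35 to 38 at 120 ppm, from 18 to 21 from 1 to 5 ppm, from 0 to 3 from 5 to 10 ppm and from 31 to 33 from 40 to 120 ppm.

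With the poly-A level as a covariate, 19 members (12 higher, 7 lower) changed at 120 ppm in place of 38, and 14 against 40 ppm in place of 32. As that level was higher on the 120 ppm arrays than on all others, this covariate cannot separate dose from array. The step from 5 to 10 ppm, with 2 members, gave 1 with all probe sets tested, with the 1.5-fold limit or without the 2 arrays that share an animal number. It gave 4 with only both groups in the fit, 5 after a repeated quantile normalization, 6 at an adjusted p under 0.1, 8 with centred arrays, 9 without the 120 ppm arrays and 11 with array weights. The counts of 6, 9 and 11, and of 4 with the replicate block, each include 1 lower member, Rpa3. From 20 to 40 ppm array weights gave 2 in place of 0.

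The labels do not say that equal replicate numbers pair the arrays. Deviations from the group means correlated over 0.1 in 53 of 105 pairs with equal numbers (median 0.11) and in 110 of 420 other pairs (median -0.03), so equal numbers went together more often but not in every pair, and no pairing was used in the main results. With the replicate block 14, 31, 28, 27 and 38 members changed at 5, 10, 20, 40 and 120 ppm, and 4 from 5 to 10 ppm.

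Directions at 120 ppm that turned were, against 0 ppm, Tyms (0.10 as the mean of probe sets, 0.042 with centred arrays, 0.15 after quantile normalization), Prim1 (0.36 and 0.47 under the last 2), and with centred arrays Pcna (0.13) and Rpa1 (0.055). With the poly-A covariate Mcm4 (0.21) and Mcm6 (0.12) turned with no call, and Rpa3 turned to -0.58. Against 40 ppm Prim1 turned to 0.012 with centred arrays, 0.073 after quantile normalization and 0.18 with the covariate, Dnmt1 to 0.33 with centred arrays, and Pola1 (0.53) and Rpa3 (-0.65) with the covariate. The cause was not tested. Of the values of single members under an alternative, 10828 kept direction and side of the threshold, 306 lost their call, 224 gained one and 16 turned. Of the 44 members 13 were above the nonspecific control on all arrays at 120 ppm, which limits what the others show there.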
